A study of Mus musculus with 16 samples.

Results

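The presynaptic active zone genes described here were 10 genes, Rims1, Rims2, Pclo, Bsn, Erc1, Erc2, Ppfia3, Unc13a, Rab3a and Rab3c, taken as every transcript that carried one of these gene names. They held 53 of the 80137 measured transcripts and 10 of 18287 gene names. RNA of the hippocampus was sequenced in 16 male wild type C57BL/6 mice aged 3 months, 4 per group in 4 groups, and each library pooled the left and right hippocampus of a mouse. Homecage (HC) mice were not handled, shocked or tested, and control (Ctrl) mice were put in the shuttle box without shock on the first day and then received 30 escapable shocks of 0.4 mA there, but no inescapable shocks. The remaining mice received 180 inescapable shocks of 0.4 mA the day before the same 30 escape trials, and were divided afterwards by escape failures and latency into mice that showed learned helplessness (LH) and mice that did not (NLH), so these 2 groups were defined by behavior and not by treatment. Tested mice gave tissue 3 h after testing. The 4 comparisons followed from this design, namely Ctrl vs. HC for handling, shuttle box exposure and testing with escapable shock together, NLH vs. Ctrl and LH vs. Ctrl for prior inescapable shock with either behavioral outcome, and LH vs. NLH for the outcome itself. In GENCODE vM21 (GRCm38) the genes lie as follows: Rims1 at chr1:22286251-22805994 (minus strand), Rims2 at chr15:39198261-39684372 (plus strand), Pclo at chr5:14514918-14863459 (plus strand), Bsn at chr9:108096022-108190384 (minus strand), Erc1 at chr6:119570796-119848167 (minus strand), Erc2 at chr14:27622428-28478537 (plus strand), Ppfia3 at chr7:45339122-45367019 (minus strand), Unc13a at chr8:71624417-71671757 (minus strand), Rab3a at chr8:70754679-70758677 (plus strand) and Rab3c at chr13:110054187-110280996 (minus strand).

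The active zone is the patch of presynaptic membrane where synaptic vesicles dock, are primed and fuse. Its scaffold is made of large multidomain proteins. RIM proteins (Rims1, Rims2) tether calcium channels and bind vesicles through the GTPases Rab3A and Rab3C, Munc13-1 (Unc13a) primes vesicles for fusion, ELKS/CAST proteins (Erc1, Erc2) and liprin-alpha-3 (Ppfia3) link the scaffold together, and Bassoon (Bsn) and Piccolo (Pclo) are the very large proteins that organize the vesicle cluster. Many of these genes make several proteins by alternative splicing. The last residues of the brain ELKS/CAST proteins are known to bind the PDZ domain of RIM, and long forms of Piccolo carry a second C2 domain that short forms lack.

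Because the values were measured per transcript, the pieces by which the transcripts of Erc2, Pclo and Rims1 differed are shown first. They were read 5′ to 3′ from the GENCODE vM21 transcripts (GRCm38, the mm10 assembly) and were chosen after the values had been seen. Capitals mark the distinguishing piece and lower case the 15 bases of the neighbouring exon. At the 3′ end of the Erc2 coding sequence, on the plus strand of chromosome 14, the long end (chr14:28475603-28475776, the last 174 coding bases) stood in Erc2-201 and in the retained-intron transcript Erc2-204, and the short end (chr14:28317249-28317275, 27 coding bases) in Erc2-205, Erc2-208 and Erc2-210. Both pieces joined the same upstream exon and ended in a stop codon. An inner first coding exon (chr14:27876131-27876202) opened the coding sequence of Erc2-208 and Erc2-213.
Erc2 long end: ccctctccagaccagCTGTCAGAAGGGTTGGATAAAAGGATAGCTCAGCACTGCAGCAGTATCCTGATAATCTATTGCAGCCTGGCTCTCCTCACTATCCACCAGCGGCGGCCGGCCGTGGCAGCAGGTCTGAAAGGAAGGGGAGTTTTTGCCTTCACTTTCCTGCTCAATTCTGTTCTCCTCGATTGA
Erc2 short end: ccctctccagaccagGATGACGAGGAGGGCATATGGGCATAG
Erc2 inner start: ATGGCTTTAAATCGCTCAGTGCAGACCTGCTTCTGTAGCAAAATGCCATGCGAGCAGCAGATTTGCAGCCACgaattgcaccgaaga
Pclo, on the plus strand of chromosome 5, had a short coding end of 17 bases (chr5:14794027-14794043) in Pclo-202 and Pclo-204. The first exon of its long end (chr5:14811610-14811751) stood in Pclo-201 and in the retained-intron transcript Pclo-203.
Pclo short end: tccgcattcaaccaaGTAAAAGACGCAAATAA
Pclo long end, first exon: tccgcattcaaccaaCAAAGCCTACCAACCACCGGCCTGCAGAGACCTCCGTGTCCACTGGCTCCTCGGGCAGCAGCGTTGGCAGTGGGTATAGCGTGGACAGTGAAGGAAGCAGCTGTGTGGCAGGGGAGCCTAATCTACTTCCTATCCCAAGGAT
A pair of internal coding exons of Rims1, on the minus strand of chromosome 1, differed between its transcripts. The exon of 72 bases (chr1:22404444-22404515) was in Rims1-203, Rims1-204 and Rims1-208, and the exon of 183 bases (chr1:22398599-22398781) was in Rims1-204 and Rims1-208.
Rims1 exon of 72 bases: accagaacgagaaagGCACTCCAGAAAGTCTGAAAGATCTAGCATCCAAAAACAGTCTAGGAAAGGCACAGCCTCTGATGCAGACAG
Rims1 exon of 183 bases: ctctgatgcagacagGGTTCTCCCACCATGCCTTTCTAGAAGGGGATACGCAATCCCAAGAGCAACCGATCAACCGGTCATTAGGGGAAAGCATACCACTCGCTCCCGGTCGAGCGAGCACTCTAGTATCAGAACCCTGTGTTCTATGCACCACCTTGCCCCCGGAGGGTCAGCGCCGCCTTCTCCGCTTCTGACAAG

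Levels are given as FPKM, the fragments of a transcript per kilobase of its length, scaled to the size of the library, which lets genes of different length be compared. Summed over all transcripts a mouse held 120208 to 158004 FPKM, and depth, estimated from steps between low FPKM values, was 20200000 to 38180000 fragments. LH mice 3 and 4 stood apart, with 10846 and 15504 transcripts listed at exactly 0 where the other 14 mice had 4872 to 7352, and their depth estimates were among the 3 lowest. Of 5 markers of hippocampal fields (Prox1, C1ql2, Wfs1, Fibcd1, Grik4), all were measured, and their summed FPKM was 19.3 in LH mouse 3 and 15.5 in LH mouse 4 and 22.4 to 34.6 in the HC, Ctrl and NLH mice. LH mouse 4 was also below all of these mice in the summed FPKM of the markers of astrocytes (84.6, where they began at 96.2), oligodendrocytes (174.2 and 226.4), microglia (17.3 and 21.6) and striatum (5.27 and 6.22), and LH mouse 3 in those of red blood cells (140.7 and 211.0). Of the 2 measured endothelium markers, Flt1 was at 10.6 in LH mouse 4 and 1.43 to 3.55 in the HC, Ctrl and NLH mice, while Pecam1 was at 1.18 in LH mouse 4, below all of them, and LH mouse 3 was lower still. Summed, these 2 markers were at 4.80 to 5.61 FPKM in NLH mice, above all HC (2.63 to 4.70) and Ctrl mice (3.60 to 4.49). The sums of every other marker list overlapped between NLH and Ctrl mice. The 3 measured neuron markers (Rbfox3, Map2, Nefl) were at 120.1 to 164.7 in all mice, and choroid plexus markers (Ttr, Kl, Folr1) ran from 1.45 to 69.9. Exact p values below are two-sided permutation tests over mice. In whole tissue, fewer cells of a type and less RNA per cell cannot be told apart, and the part of these differences in the results was not tested. LH mice 1 and 2 had the highest summed FPKM of the 16 mice (150826 and 158004) and the highest size factors (1.156 and 1.201), and LH mouse 2 was above all HC, Ctrl and NLH mice in the summed markers of every list, among them hippocampal fields (34.7), astrocytes (142.1), microglia (27.9), striatum (15.2) and red blood cells (448.1). Gene results of LH mice are also given for LH mice 1 and 2 alone in the comparisons with Ctrl and NLH mice below, except for Erc1 and Rab3c against NLH mice.

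Rab3a was the most abundant of the 10 genes, at a mean of 54.0 FPKM over the 16 mice, followed by Rab3c at 32.0. By named transcripts, Erc2 (20.0), Pclo (19.4), Rims1 (18.7) and Bsn (14.3) formed a middle tier of scaffold genes, and Ppfia3 (6.95), Unc13a (6.61) and Erc1 (2.76) were lower. Rims2 was lowest at 0.767 FPKM, summed over transcripts that held 6.41% of the FPKM at its locus. The mice varied least for Pclo, with a coefficient of variation of 8.62%, and most for Rims2, at 56.1%. These levels are of named transcripts, and the order of the genes differed over the whole locus, with unnamed transcripts added. In HC mice the locus means were 35.1 FPKM for Erc2, 30.5 for Rab3c, 25.4 for Unc13a and 22.7 for Pclo. Those of Rims2, Ppfia3 and Erc1 were 11.1, 8.33 and 4.85. The order of the group means is given as a description. NLH mice had the highest mean of the 4 groups for every gene except Rab3c, whose highest mean was in LH mice, though after median-ratio size factors the log2 mean of Ppfia3 was higher in LH than in NLH mice and those of Bsn and Rab3a higher in Ctrl than in NLH mice. Over the whole locus, unnamed transcripts included, the highest mean was in LH mice for Rims1, Rims2 and Pclo too, and in Ctrl mice for Unc13a. No 2 groups next to each other in the order were without overlap for any gene.

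**Figure D1:**
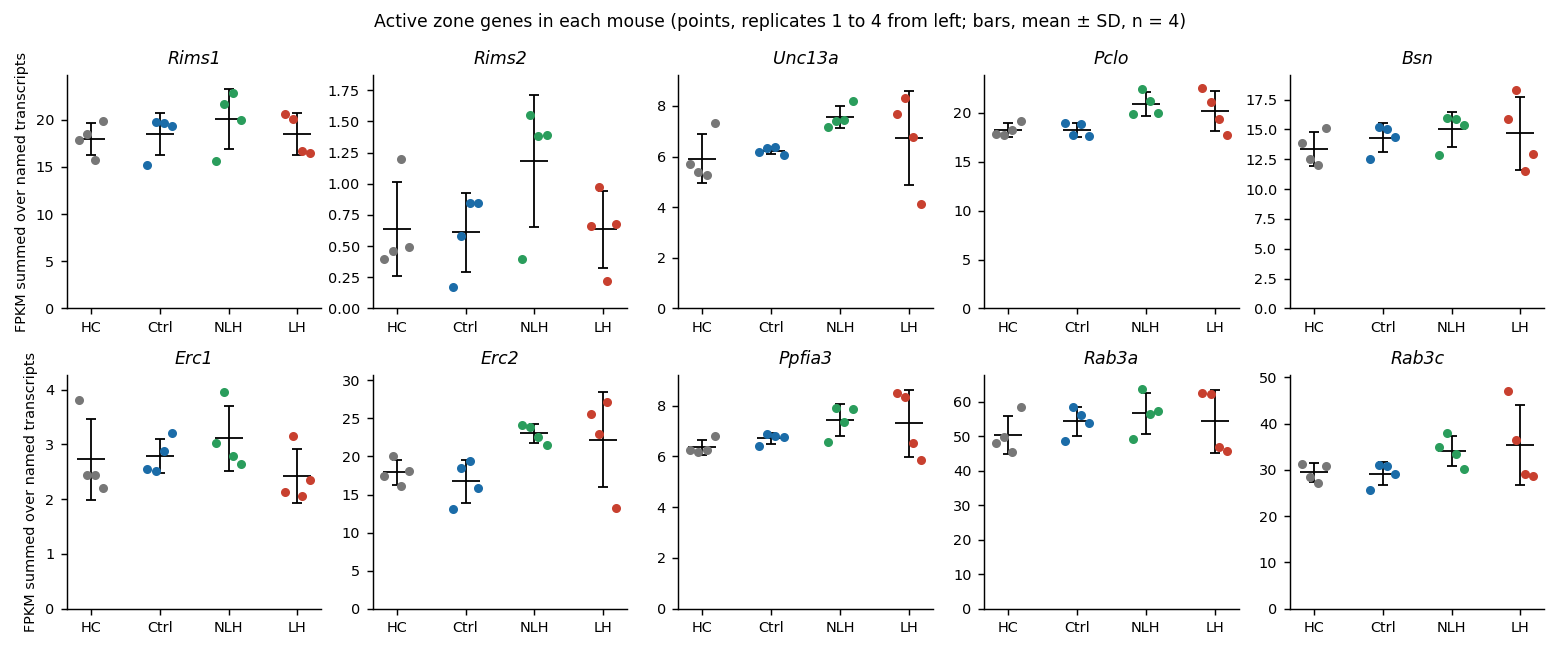
FPKM of the 10 genes in each mouse, summed over named transcripts (vertical axes, FPKM from 0), for HC, Ctrl, NLH and LH mice. Points are mice and bars are mean ± SD of 4 mice. The NLH points of Erc2, Pclo and Unc13a all lie above the Ctrl points, though those of Pclo overlap after median-ratio size factors.

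No active zone gene passed a test between tested and homecage mice. In Ctrl vs. HC, none of the 10 genes passed the limma test at an adjusted p of 0.05, as for 0% of all 18287 genes, and none had an unadjusted p under 0.05, against 2.7% of all genes. By the study's equal-variance two-group test on FPKM, run here on gene sums, 0 of 10 passed an unadjusted p of 0.05, against 8.5% of all genes tested. The means of 7 of 10 genes were higher in Ctrl mice, against 54% of all genes, and 6 of 10 after median-ratio size factors, where Pclo turned lower (-0.025), as it did over the whole locus (-0.032). The log2 differences of FPKM + 0.1 ran from -0.11 (Erc2) to 0.11 (Rab3a). For no gene did the 4 Ctrl mice lie wholly above or below the 4 HC mice, against 5.24% of all genes.

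Prior inescapable shock without helplessness went with higher means of these genes summed over named transcripts, but none passed the adjusted test. In NLH vs. Ctrl 0 of 10 genes had an adjusted limma p under 0.05, against 0.00547% of all genes, and 2 of 10, Erc2 and Pclo, had an unadjusted p under 0.05, against 5.59% of all genes. The study's two-group test called 3 of 10 at an unadjusted p of 0.05, against 9.57%. The CAST gene Erc2 was at 13.2, 18.4, 19.5 and 15.9 in the Ctrl mice, and 24.1, 23.9, 22.6 and 21.4 in the NLH mice. Every NLH mouse was above every Ctrl mouse (log2 difference 0.47, SE 0.18, adjusted p = 0.73, and two-sided exact permutation p = 0.0286, the smallest that 4 mice against 4 can give). Piccolo (Pclo) was at 19.0, 17.7, 18.9 and 17.7 in the Ctrl mice, and 19.9, 22.5, 21.3 and 20.0 in the NLH mice. These groups did not overlap on the FPKM scale (log2 difference 0.19, SE 0.088, adjusted p = 0.87, exact p = 0.0286). After median-ratio size factors Pclo was at 20.1, 17.2, 18.7 and 17.5 in the Ctrl mice and 20.2, 20.3, 18.7 and 20.2 in the NLH mice, so that the groups overlapped, and the log2 difference was 0.11. The priming factor Unc13a was at 6.19, 6.32, 6.37 and 6.06 in the Ctrl mice, and 7.16, 7.42, 7.45 and 8.19 in the NLH mice, again without overlap (log2 difference 0.27, SE 0.17, adjusted p = 0.98, exact p = 0.0286). The named transcripts held 26.1% of the FPKM at the Unc13a locus, and over the whole locus the sign turned (log2 difference -0.012) and the groups overlapped. Groups without overlap were seen in 3 of 10 genes by named transcripts, against 6.04% of all genes, and after size factors in 2 (Erc2 with a log2 difference of 0.39 and Unc13a with 0.19), against 6.96%. All 10 means were higher in NLH mice, against 60.6% of all genes, but 9 of 10 over the whole locus and 8 of 10 after median-ratio size factors, where Rab3a and Bsn turned lower (-0.019 and -0.0066). The median log2 difference was 0.17 for the 10 genes and 0.06 for all genes, or 0.089 and -0.00063 after size factors. The other genes had differences from 0.059 (Rab3a) to 0.86 (Rims2), and their groups overlapped. The Rims2 difference was 0.46 without Ctrl mouse 1 and 1.27 without NLH mouse 1.

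No gene sum passed a test between LH and Ctrl mice with all mice included. In LH vs. Ctrl 0 of 10 genes passed the adjusted test, as for 0% of all genes, and 0 of 10 had an unadjusted limma p under 0.05, against 11.5% of all genes. The study's two-group test, run here on gene sums, called 0 of 10, against 8.01%. The study itself tested single transcripts. By real time PCR in more mice per group, it reports Rab3a as different in LH mice from both Ctrl and NLH mice. Erc2 was at 25.6, 23.0, 27.1 and 13.2 in the LH mice, so that 3 mice were above the Ctrl range and LH mouse 4 lay at its lower end (log2 difference 0.37, SE 0.18, adjusted p = 0.45, exact p = 0.143). Without LH mouse 4 the difference was 0.60 and its adjusted limma p was 0.043 (1.04% of all genes passed in that fit), and with LH mice 1 and 2 only it was 0.55 with an adjusted p of 0.037 (5.41% of all genes). After median-ratio size factors neither passed, at 0.47 (adjusted p = 0.14, 0.104% of all genes) and 0.31 (adjusted p = 0.34, 0.0711% of all genes). The vesicle GTPase gene Rab3c was at 47.1, 36.5, 29.1 and 28.8 in LH mice and at 25.7, 31.2, 30.9 and 29.1 in Ctrl mice, with LH mice 1 and 2 above all Ctrl mice and LH mice 3 and 4 within their range (log2 difference 0.25, SE 0.14, adjusted p = 0.51, exact p = 0.257). Rab3c, with LH mice 1 and 2 only, differed by 0.51 (adjusted p = 0.031), and by 0.27 when size factors were applied as well (adjusted p = 0.32). Leaving out 1 mouse gave 0.10 to 0.34 for Rab3c. Pclo was at 22.5, 21.1, 19.4 and 17.7 in LH mice (log2 difference 0.14, SE 0.088, adjusted p = 0.60, exact p = 0.114), and LH mouse 4 was the one within the Ctrl range. Leaving out 1 mouse gave 0.083 (without LH mouse 1) to 0.20 for Pclo, and LH mice 1 and 2 only gave 0.25, or 0.014 after size factors. The other genes, compared in the same 2 LH mice, differed by -0.10 (Erc1) to 0.50 (Rims2), and none of them passed. No gene had LH mice wholly above or below the Ctrl mice, against 5.59% of all genes, and after size factors 1 did, Ppfia3 (log2 difference 0.070, adjusted p = 0.66), against 7.92%. The means of 8 of 10 genes were higher in LH mice, against 48.4% of all genes, with a median of 0.07, and 6 of 10 were higher after size factors, where Rims1 and Bsn turned lower (-0.033 and -0.015), and 7 of 10 over the whole locus, where Bsn and Unc13a turned lower (-0.072 and -0.12) and Erc1 higher (0.13). Both NLH vs. Ctrl and LH vs. Ctrl use the same 4 Ctrl mice and are not independent of each other.

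No gene sum passed a test between the 2 behavioral outcomes. In LH vs. NLH 0 of 10 genes had an adjusted limma p under 0.05, against 0.0109% of all genes, and 0 of 10 an unadjusted p under 0.05, against 7.54%. By the study's two-group test 0 of 10 passed, against 3.5%. The smallest unadjusted p was that of Erc1, the widely expressed ELKS gene, which was at 3.03, 3.96, 2.79 and 2.65 in NLH mice and 2.13, 3.15, 2.07 and 2.35 in LH mice (log2 difference -0.35, SE 0.19, adjusted p = 0.70, exact p = 0.143). NLH and LH values of Erc1 overlapped, and LH mouse 2 was the one LH mouse within the NLH range. Leaving out 1 mouse gave -0.48 to -0.23 for Erc1. Only Rab3c had a higher mean in LH mice (0.025), and the other 9 differences ran from -0.79 (Rims2) to -0.036 (Ppfia3, which turned to 0.0080 after size factors), where 38.9% of all genes were higher. Over the whole locus 4 of 10 were higher in LH mice, since Rims1, Pclo and Rims2 turned (0.032, 0.019 and 0.014), and for Rims2 the named transcripts were 6.41% of the locus. Leaving out NLH mouse 1 gave -1.19 for Rims2 and leaving out LH mouse 3 gave -0.43. Taking LH mice 1 and 2 only, the sign turned to higher in LH mice for Rims1, Pclo, Bsn, Unc13a, Erc2, Rab3a and Ppfia3, and Rims2 was at -0.36. With size factors applied to these 2 LH mice as well, only Bsn and Ppfia3 kept the turned sign (0.026 and 0.024). No gene was without overlap, against 2.11% of all genes. In limma's test over all 4 groups, 0 of 10 genes passed at an adjusted p of 0.05, against 0.0766% of all genes, and 0 of 10 at an unadjusted p of 0.05, against 9.96%.

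**Figure D2:**
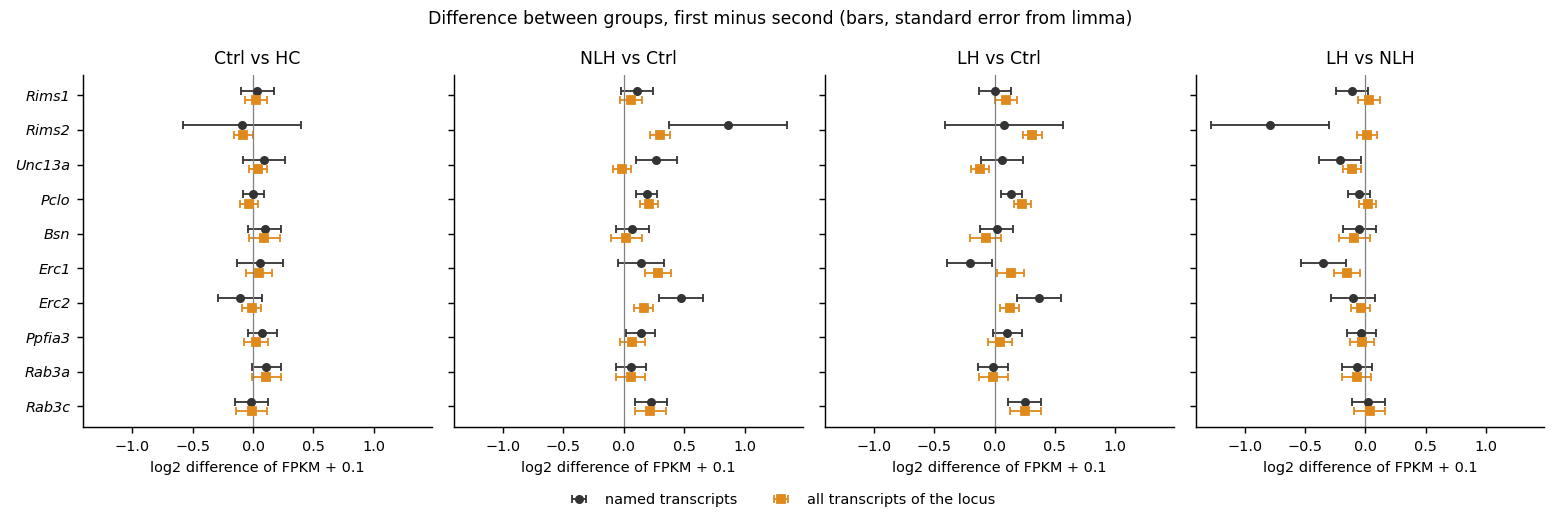
log2 differences of FPKM + 0.1 of the 10 genes in the 4 comparisons (horizontal axes, first group minus second), with bars of 1 SE from limma. Dark circles are sums over named transcripts and orange squares sums over all transcripts of the locus. Erc2 stands at 0.47 for named transcripts and 0.16 for the locus in NLH vs. Ctrl.

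No single transcript passed the adjusted test either. Of the 53 transcripts 0 passed the adjusted limma test in any comparison, where the background was 0.00374% of all transcripts in Ctrl vs. HC, 0.0125% in NLH vs. Ctrl, 0.0412% in LH vs. NLH and 0.0462% in LH vs. Ctrl. At an unadjusted p under 0.05 limma counted 1 of 53 in Ctrl vs. HC (background 3.45%), 5 in NLH vs. Ctrl (5.12%), 8 in LH vs. NLH (8.72%) and 13 in LH vs. Ctrl (10.7%). The study's two-group test called 4, 7, 5 and 8 of them in the same order, against 6.68%, 7.2%, 4.47% and 7.69% of all transcripts. Transcripts without overlap between the groups numbered 3, 5, 4 and 8 of 53, against 4.48%, 5.02%, 3.18% and 5.85%, and after size factors 2, 5, 2 and 6, against 4.49%, 5.42%, 3.43% and 6.3%. In the test over 4 groups 0 of 53 passed the adjusted threshold (0.0948%) and 9 had an unadjusted p under 0.05 (8.79%).

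Erc2-201, which has the long end and the longest coding sequence of the named Erc2 transcripts, was at 4.04, 4.33, 4.48 and 3.28 FPKM in the HC mice and 3.24, 3.64, 3.11 and 4.20 in the Ctrl mice. It was at 7.54, 5.47, 6.19 and 4.92 in the NLH mice and 5.92, 4.38, 4.63 and 6.58 in the LH mice, so that all 8 mice given inescapable shock were above all 4 Ctrl mice on the FPKM scale. After size factors this held for the NLH mice, while LH mouse 2 (4.38 FPKM, 3.64 scaled) was within the Ctrl range, which reached 4.16. The difference was 0.74 in NLH vs. Ctrl (SE 0.17, adjusted p = 0.34) and 0.58 in LH vs. Ctrl (adjusted p = 0.23, and 0.52 with LH mice 1 and 2 only, or 0.28 in these with size factors). Erc2-208, with the inner start and the short end, was at under 0.01, 1.38, 1.59 and 0.554 in the Ctrl mice, 3.78, 4.27, 4.39 and 3.15 in the NLH mice and 3.72, 2.85, 4.00 and 1.61 in the LH mice. HC mice ran from 0.201 to 2.52 FPKM. NLH and LH mice were above every Ctrl mouse, with size factors too, LH mouse 4 by a margin of less than 0.1 in FPKM (log2 difference 2.64, SE 0.77, adjusted p = 0.54, exact p = 0.0286 in NLH vs. Ctrl, and adjusted p = 0.32 in LH vs. Ctrl). The size in NLH vs. Ctrl rests in part on the value near 0 of Ctrl mouse 1, and was 1.75 without that mouse. The noncoding transcript Erc2-211 had means of 3.35 ± 2.02 FPKM in homecage mice, 1.72 ± 0.634 in Ctrl, 4.64 ± 2.26 in NLH and 4.50 ± 3.09 FPKM in LH mice (log2 difference 1.34, SE 0.47, adjusted p = 0.77 in NLH vs. Ctrl). Ctrl mice had the lowest mean of the 4 groups, and the difference in Ctrl vs. HC was -0.83 (adjusted p = 1, groups overlapping). This difference was -1.10 to -0.48 when 1 mouse was left out, and HC mouse 2 (6.28) stood above the other HC mice (1.68 to 2.80).

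Several Erc2 transcripts also held different shares of the gene in NLH and Ctrl mice, without passing the adjusted test. Shares are percent of the named FPKM of a gene in a mouse, and were tested by limma as the log2 ratio of a transcript to the rest of its gene, with 0.1 added to both. Of the 52 transcripts of the 9 genes with more than 1 named transcript, 0 passed the adjusted test, against 0.00369%, 0.00738%, 0.0258% and 0.0295% of all such transcripts in Ctrl vs. HC, NLH vs. Ctrl, LH vs. Ctrl and LH vs. NLH. Unadjusted p values under 0.05 numbered 2, 6, 11 and 6 (backgrounds 3.37%, 4.98%, 10.6% and 9.43%), and the study's two-group test on shares called 5, 6, 7 and 6, against 5.31%, 6.41%, 7.11% and 5.04%. Shares without overlap numbered 3, 6, 6 and 4, against 3.71%, 4.72%, 5.57% and 3.83%, and over 4 groups 0 passed the adjusted threshold (0.0664%) and 7 had an unadjusted p under 0.05 (8.43%). The retained-intron transcript Erc2-204 made up 26.0, 28.6, 28.8 and 33.2% of Erc2 in Ctrl mice and 5.18, 13.7, 9.35 and 3.64% in NLH mice, without overlap (log2 difference -2.35, SE 0.92, adjusted p = 0.89, exact p = 0.0286), and 10.4 to 29.6% in HC mice, overlapping both. In LH mice it made up 15.7, 35.6, 11.3 and under 0.01%, from near absence in LH mouse 4 to above every Ctrl mouse in LH mouse 2. Erc2-208 made up 6.92 ± 4.69% in homecage mice, 4.80 ± 3.81% in Ctrl, 16.9 ± 2.13% in NLH and 13.5 ± 1.36% in LH mice (log2 difference 2.36, SE 0.71, adjusted p = 0.64 in NLH vs. Ctrl, and 1.56 without Ctrl mouse 1). The shares of the short inner transcript Erc2-213 ran the other way, at 12.4 ± 2.90% in HC mice, then, in the order Ctrl, NLH, LH, at 13.8 ± 3.62%, 7.02 ± 2.66% and 6.24 ± 2.45% (log2 difference -1.25, SE 0.39, adjusted p = 0.28 in LH vs. Ctrl, and -1.10 with LH mice 1 and 2 only), as did those of the retained-intron transcript Erc2-203, at 9.44 ± 1.03% in HC mice, then 11.2 ± 2.11%, 6.52 ± 0.425% and 6.48 ± 2.56%.

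By class, and as a description, retained-intron transcripts held 32.8% of Erc2 in HC mice, 42.7% in Ctrl (39.8 to 48.5%), 14.9% in NLH (11.9 to 20.0%) and 22.8% in LH mice (10.3 to 40.6%). Sorted by the printed ends, transcripts with the short end summed to 0.554 to 3.47 FPKM in Ctrl mice, 4.28 to 8.91 in NLH and 1.61 to 8.94 in LH mice. Those with the long end had means of 8.44, 7.89 and 9.19 FPKM. Of both ends together, the short end was a mean of 21.1% in HC mice, 17.0% in Ctrl mice, 46.1% in NLH and 35.6% in LH mice. NLH and Ctrl mice did not overlap in this percent, and LH mice ran from 19.6 to 47.3%. The long end here includes Erc2-204, whose share was lower in NLH mice, while Erc2-201 with the same end was higher. These sums rest on transcripts chosen after their values were seen and were not tested.

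**Figure D3:**
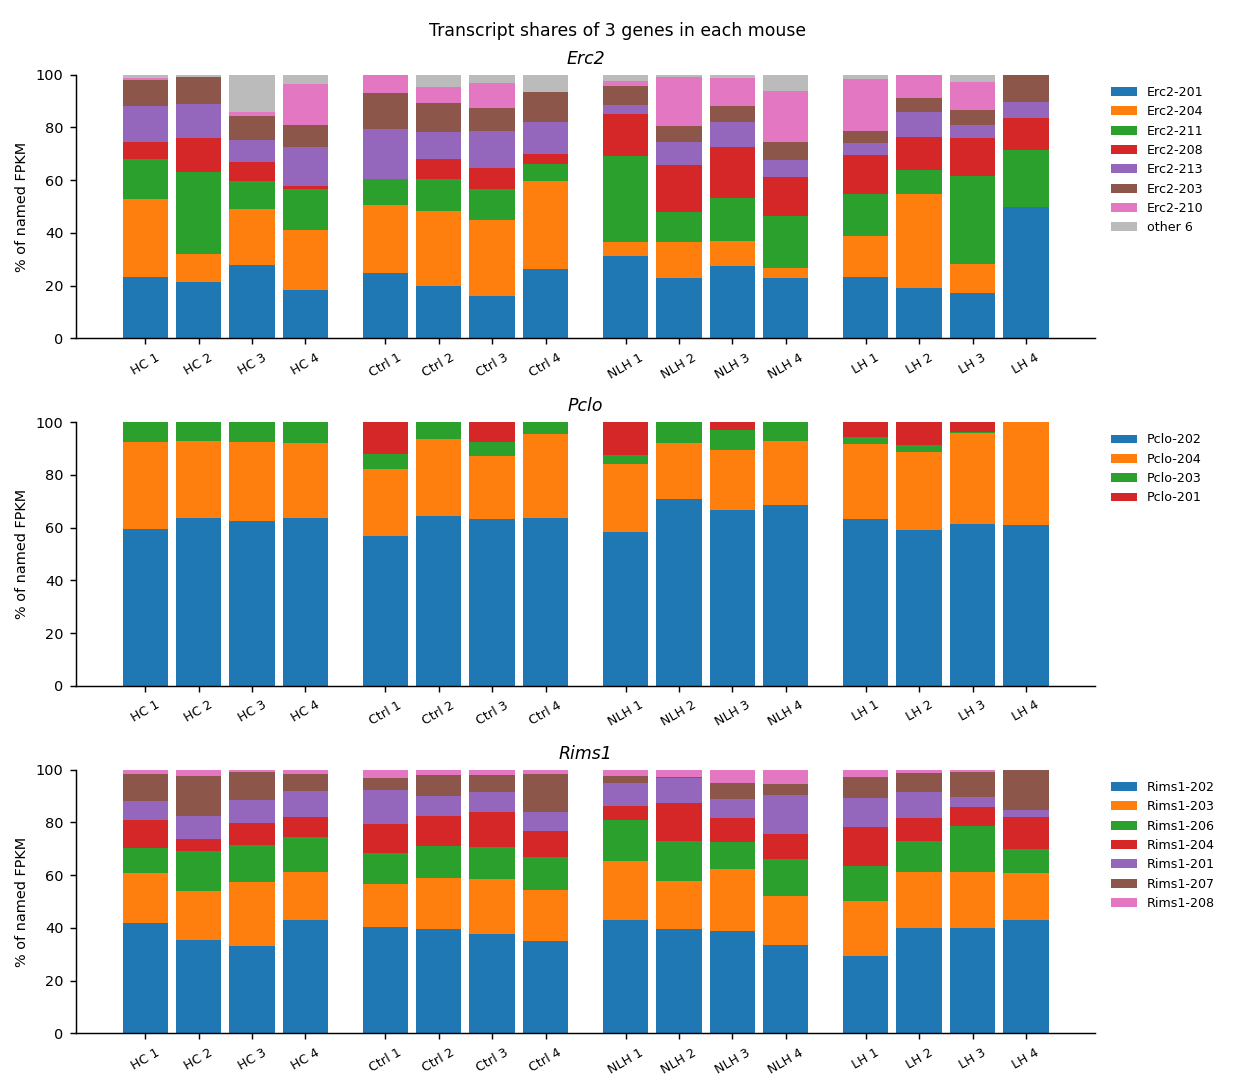
Percent of named FPKM held by each transcript of Erc2, Pclo and Rims1 (vertical axes, 0 to 100%) in each of the 16 mice, ordered by group. Erc2-204 holds 26.0 to 33.2% in Ctrl mice and 3.64 to 13.7% in NLH mice.

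On the FPKM scale Pclo-204 and Pclo-203 separated LH mice from both Ctrl and NLH mice without overlap, and after size factors Pclo-203 did. Pclo-204, a short-end transcript annotated without its 5′ end, was at 4.84, 5.20, 4.48 and 5.59 FPKM in the Ctrl mice, 5.13, 4.82, 4.80 and 4.84 in the NLH mice and 6.41, 6.22, 6.68 and 6.94 in the LH mice. Every LH mouse was above every Ctrl and NLH mouse in FPKM (log2 difference 0.38, SE 0.090, adjusted p = 0.15, exact p = 0.0286 against Ctrl mice, and log2 difference 0.41, SE 0.090, adjusted p = 0.17, exact p = 0.0286 against NLH mice), and HC mice, at 5.15 to 5.91, overlapped the Ctrl mice and were below the LH mice. With LH mice 1 and 2 only the differences were 0.33 and 0.36, and 0.091 and 0.20 after size factors. With all mice and size factors they were 0.35 and 0.46, and LH mouse 2 (scaled value 5.18) was below Ctrl mouse 4 (5.54) and NLH mouse 1 (5.19). The retained-intron transcript Pclo-203, which has the long end, was at 1.26 to 1.52 in the HC mice, 1.10, 1.12, 0.997 and 0.801 in the Ctrl mice, 0.657, 1.74, 1.58 and 1.46 in the NLH mice and 0.615, 0.610, 0.0547 and under 0.01 in the LH mice. LH mice were below all Ctrl and NLH mice, and LH mice 3 and 4, which had many transcripts at 0, were lowest (log2 difference -1.88, SE 0.53, adjusted p = 0.22, exact p = 0.0286 against Ctrl mice, and log2 difference -2.22, SE 0.53, adjusted p = 0.23, exact p = 0.0286 against NLH mice). With LH mice 1 and 2 only the differences were smaller, at -0.62 and -0.96. Pclo-202, the full-length short-end transcript that held most of the gene, had means of 11.3 ± 0.486 in Ctrl, 13.9 ± 1.75 in NLH and 12.4 ± 1.43 in LH mice (log2 difference 0.28, SE 0.10, adjusted p = 0.85 in NLH vs. Ctrl).

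**Figure D4:**
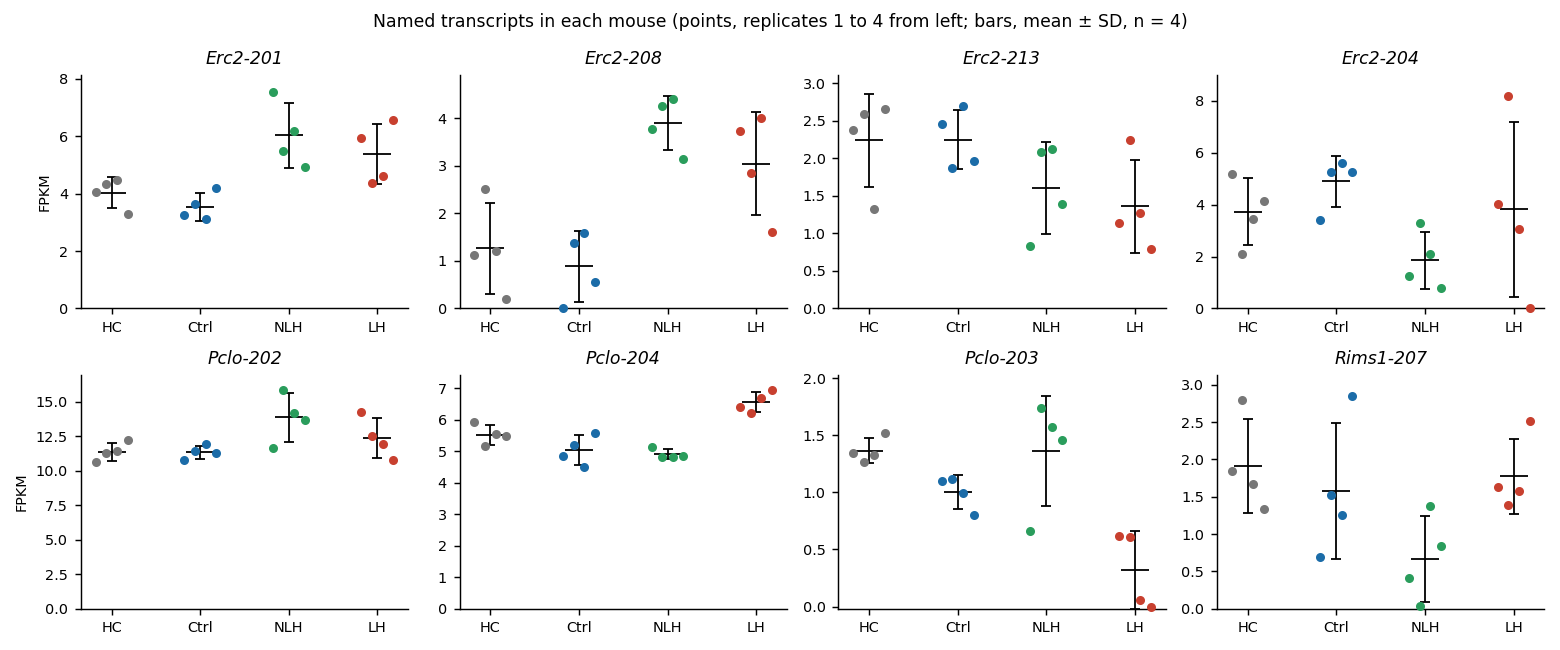
FPKM of 8 transcripts of Erc2, Pclo and Rims1 in each mouse (vertical axes, FPKM), with points for mice and bars for mean ± SD of 4 mice in the HC, Ctrl, NLH and LH groups. Pclo-204 is at 6.22 to 6.94 in LH mice, above all Ctrl and NLH mice in FPKM but not after size factors.

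Rims1, the main RIM gene here, had only coding transcripts among its named ones, and the 3 largest were Rims1-202, Rims1-203 and Rims1-206. Rims1-207, a transcript of the 3′ part of the gene with 6 exons, was at 0.416, 0.0412, 1.38 and 0.841 FPKM in the NLH mice and 1.63, 1.39, 1.57 and 2.51 in the LH mice. LH mice were above NLH mice by a narrow gap in FPKM (log2 difference 1.70, SE 0.57, adjusted p = 0.43, exact p = 0.0286) and overlapped them after size factors, and the difference was 1.51 with LH mice 1 and 2 only (1.33 with size factors) and 1.03 without NLH mouse 2, the lowest mouse. Its share of Rims1 was 3.27 ± 2.48% in NLH and 9.88 ± 3.75% in LH mice (log2 difference 1.91, SE 0.62, adjusted p = 0.37, and 1.19 without NLH mouse 2), and Ctrl mice were at 1.58 ± 0.911 FPKM, overlapping both. Rims1-204, with both printed exons, had a mean of 1.40 ± 0.435 in HC and 2.11 ± 0.390 in Ctrl mice (log2 difference 0.60, SE 0.36, adjusted p = 1, and 0.40 to 0.76 with 1 mouse left out). Transcripts with the exon of 72 bases summed to 5.27, 6.04, 6.92 and 6.01 FPKM in HC, Ctrl, NLH and LH mice, and the groups overlapped.

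Bassoon, the scaffold partner of Piccolo, had 2 named transcripts. The full transcript Bsn-201 made up 91.7, 94.9, 87.6 and 91.0% of the gene in HC mice and 98.0, 98.5, 96.2 and 96.0% in Ctrl mice, without overlap (log2 difference 1.52, SE 0.56, adjusted p = 1, exact p = 0.0286), and the remainder was the incompletely annotated Bsn-202. NLH and LH mice were at 87.6 to 97.1% and 85.0 to 97.8%. In Erc1, transcripts annotated for nonsense-mediated decay held a mean share of 66.3% over the 16 mice, led by Erc1-211 and Erc1-206 (means of 1.19 and 0.550 FPKM). Erc1-211 was at 0.999, 1.11, 0.732 and 0.818 in HC mice and 1.82, 1.13, 1.43 and 1.45 in Ctrl mice, without overlap in FPKM (log2 difference 0.62, SE 0.41, adjusted p = 1, exact p = 0.0286) but overlapping after size factors. The liprin gene Ppfia3 was carried by Ppfia3-207 and Ppfia3-201, which together held most of its FPKM. Its small retained-intron transcript Ppfia3-208 was at 0.222, 0.144, 0.154 and 0.244 FPKM in Ctrl mice and under 0.01 in all 4 LH mice (adjusted p = 0.15), and NLH mice were at under 0.01 to 0.158. All LH values of Ppfia3-208 lay at or near 0, which in these data can be a failed estimate, so no log2 difference is given for it.

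Among the priming and vesicle genes, the largest named transcript of Unc13a was Unc13a-208. It was at 5.10, 5.32, 5.44 and 4.67 FPKM in Ctrl mice and 6.28, 6.39, 6.16 and 7.17 in NLH mice, without overlap with or without size factors (log2 difference 0.33, SE 0.20, adjusted p = 0.99, exact p = 0.0286). The largest unnamed transcript of the locus had a mean of 11.1 FPKM, above the 5.46 of Unc13a-208. Over the whole Unc13a locus the NLH and Ctrl mice overlapped (log2 difference -0.012). Its retained-intron transcript Unc13a-202 held 16.7 ± 2.79% of the gene in Ctrl, 10.5 ± 1.99% in NLH and 11.9 ± 7.91% in LH mice. Rab3a was almost wholly Rab3a-201, at 51.2 of 54.0 FPKM. Rab3a-204 came next, and the share of Rab3a-202 was 1.23 ± 0.691% in HC and 0.345 ± 0.549% in Ctrl mice (adjusted p = 1). Rab3c had a single named transcript, Rab3c-201. Both Rab3a and Unc13a overlap a coding gene on the opposite strand (Mpv17l2 and Colgalt1), and whether the libraries kept the strand is not given in the sources used here, so reads of the overlapping genes may be mixed.

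Named transcripts held very different parts of each locus, which bears on every sum above except that of Rab3a, whose locus had no unnamed transcript. The assembly put 68 further transcripts without a gene name at the 10 loci, and their structure is not known here. Named transcripts held 6.41% of the FPKM of the Rims2 locus, 26.1% for Unc13a, 51.2% for Erc1, 54.3% for Erc2 and 61.8% for Rims1, and 72.6 to 100% for the other 5 genes. Sums over the whole locus were added as an alternative after the data had been seen. For these sums the share of all genes without overlap between groups is not given here. The loci without overlap below therefore have no background beside them. Rims2, the second RIM gene, whose named transcripts are Rims2-201 and Rims2-202, then stood at 11.1 ± 0.268 FPKM in HC mice, 10.5 ± 0.406 in Ctrl mice, 13.0 ± 0.669 in NLH and 13.1 ± 1.15 in LH mice. NLH mice (12.6 to 14.0) and LH mice (12.2 to 14.7) were above all Ctrl mice, with log2 difference 0.30, SE 0.080, adjusted p = 0.47 in NLH vs. Ctrl and log2 difference 0.31, SE 0.080, adjusted p = 0.12 in LH vs. Ctrl. The Pclo locus was at 21.6 to 22.6 in Ctrl, 24.4 to 27.9 in NLH and 24.9 to 28.8 in LH mice, also without overlap (log2 difference 0.21, SE 0.073, adjusted p = 0.66 in NLH vs. Ctrl, and log2 difference 0.23, SE 0.073, adjusted p = 0.19 in LH vs. Ctrl). For Erc2 the difference in NLH vs. Ctrl was smaller over the locus, at 0.16 (adjusted p = 0.85) against 0.47 over named transcripts, and the groups still did not overlap in FPKM. For Erc1 it was 0.28 (adjusted p = 0.70), without overlap. For Unc13a the difference in NLH vs. Ctrl was -0.012 over the locus against 0.27 over named transcripts, and in LH vs. Ctrl the locus stood at 22.6 to 25.3 in LH and 25.8 to 26.4 in Ctrl mice (-0.12, adjusted p = 0.53). In LH mice 1 and 2 alone, the locus differences in LH vs. Ctrl were 0.35 for Rims2, 0.27 for Pclo, 0.50 for Rab3c and -0.053 for Unc13a. The first 3 passed the adjusted test (adjusted p = 0.027, adjusted p = 0.037 and adjusted p = 0.024), as did 8.31% of all genes in that fit. With size factors as well they were 0.11, 0.033 and 0.26 and none of the 10 genes passed, where 0.186% of all genes did. With all mice and size factors the locus sums of Rims2 and Erc1 still did not overlap between NLH and Ctrl mice (log2 differences 0.22 and 0.21), whereas those of Pclo (0.13) and Erc2 (0.086) did. The scaled Rims2 locus of the Ctrl mice (10.00 to 10.93) was also below that of all HC mice (10.96 to 11.99). NLH mouse 3, at 11.06, was within the HC range. Between LH and Ctrl mice the loci of Rims2 (0.28), Pclo (0.20) and Unc13a (-0.16) all overlapped after size factors.

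**Figure D5:**
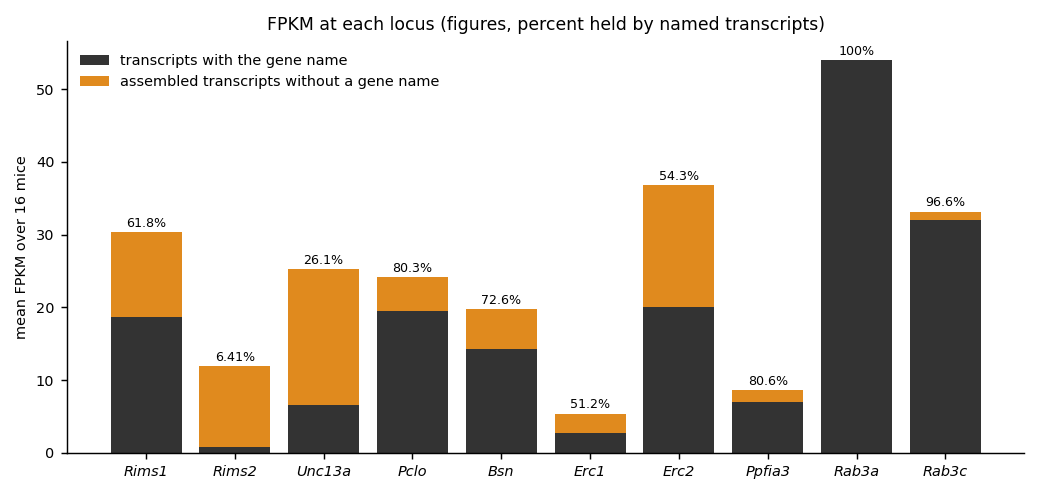
Mean FPKM over 16 mice at the locus of each gene (vertical axis, FPKM from 0), split into transcripts with the gene name (dark) and assembled transcripts without one (orange). The percent over each bar is that held by named transcripts, lowest for Rims2 at 6.41%.

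Other genes of transmitter release, in 4 lists of 44 genes of which 41 were measured, were tested in the same fit. With all mice and FPKM as deposited, none of the 41 passed the adjusted test in any comparison. In LH vs. Ctrl 4 of 41 passed with LH mice 1 and 2 only, against 5.41% of all genes, and 0 of 41 when size factors were applied as well. The 4 genes were Sv2b, Rab3gap1 (log2 difference 0.54, adjusted p = 0.031), which acts on Rab3 proteins, the SNARE gene Snap25 (0.25, adjusted p = 0.035) and the calcium sensor gene Syt1 (0.33, adjusted p = 0.045). With all mice and size factors 1 of 41 passed in LH vs. Ctrl, Cplx2, against 0.268% of all genes. By limma at an unadjusted p under 0.05, 1 was higher in Ctrl than HC mice, 1 higher in NLH than Ctrl mice, 3 higher and 1 lower in LH than Ctrl mice, and 2 higher and 1 lower in LH than NLH mice, against the backgrounds of 2.7%, 5.59%, 11.5% and 7.54% given above. Sv2b, a vesicle glycoprotein gene, had a mean of 52.2 FPKM in NLH, 53.6 in LH and 43.2 in Ctrl mice (log2 difference 0.28, adjusted p = 0.79 in NLH vs. Ctrl). In LH vs. Ctrl the Sv2b difference was 0.30 (adjusted p = 0.32), 0.49 with LH mice 1 and 2 only (adjusted p = 0.029) and 0.25 in these with size factors (adjusted p = 0.27). The RIM relative Rims3 was at 6.28 in LH and 4.66 in Ctrl mice (log2 difference 0.41, adjusted p = 0.29, 0.55 with LH mice 1 and 2 only, or 0.31 in these with size factors). The Munc13 relative Unc13b was at 3.89 in LH and 6.22 in NLH mice (log2 difference -0.78, adjusted p = 0.47, -0.39 with LH mice 1 and 2 only, or -0.55 in these with size factors), and Unc13c at 2.00 in LH and 1.08 in Ctrl mice (log2 difference 0.77, adjusted p = 0.29, 0.52 with LH mice 1 and 2 only, or 0.29 in these with size factors). Complexin 2 (Cplx2), which clamps and promotes fusion, was at 71.7 in LH and 85.7 in Ctrl mice (log2 difference -0.27, adjusted p = 0.38, -0.057 with LH mice 1 and 2 only, or -0.30 in these with size factors). With all mice and size factors Cplx2 was lower in LH mice by a log2 difference of -0.31 (adjusted p = 0.034), and with LH mice 1 and 2 only and size factors it did not pass (adjusted p = 0.10). The median log2 difference of the 41 genes in NLH vs. Ctrl was 0.04, beside 0.17 for the 10 active zone genes and 0.06 for all genes. After size factors it was 0.089 for the 10 active zone genes and -0.00063 for all genes.

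Across mice the levels of the 10 genes varied together on the FPKM scale, and after size factors some pairs did. With group means removed, the 45 pairs of genes had a median Pearson r of 0.521 over 16 mice, from -0.0553 (Rims2 and Erc2) to 0.904 (Rab3a and Ppfia3). Without LH mice 3 and 4 the median was 0.284, and after median-ratio size factors it was 0.0459, with 25 of 45 above 0. The scaled r ran from -0.525 (Bsn and Erc2) to 0.703 (Bsn and Rab3a), and 6 of 45 pairs were above 0.5, against 24 unscaled. The mean deviation of the 10 genes from the group mean was 0.25 on the log2 scale in LH mouse 2 and 0.19 in LH mouse 1, and -0.20 and -0.25 in LH mice 3 and 4. Ctrl mouse 1 and NLH mouse 1 were also low, at -0.25 and -0.22. After median-ratio size factors these means were 0.025 and 0.013 in LH mice 2 and 1, -0.099 in LH mouse 3, 0.061 in LH mouse 4, where the sign turned, -0.17 in Ctrl mouse 1 and -0.13 in NLH mouse 1. The genes whose levels followed the mean of the 10 most closely, of 10427 compared, were Eef1a2 (r = 0.980), Nectin1 (0.980) and Atp6v1g2 (0.976). These correlations share libraries and depth and are given as a description.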

How the data were processed

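RNA was measured in 16 mouse hippocampi, 1 library per mouse. The authors deposited FPKM values per transcript and mouse, made by assembling and merging transcripts with StringTie 1.2.3 and quantifying them with Cufflinks on mm10. The methods of the paper name HISAT2 as the aligner and the submitters' processing notes name STAR 2.42a, and the one that made these values is not known here. The values are not counts, so counting intervals are not given, and depth was only estimated, from 1962 single-transcript loci longer than 2000 bases (53.8 to 57.4% of values within 0.1 of a whole fragment, where 20% would be so by chance, on an assumed fragment length of 200 bases). No column was left without a sample. Transcript names and classes came from GENCODE vM21, which matched all 53 member transcripts by identifier, 52 of them in the same version.

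FPKM were summed over each of 18287 gene names. Group means of the 16 mice were compared on log2(FPKM + 0.1) in limma 3.58.1 under R 4.3.3 (eBayes, trend and robust set to true, two-sided), with Benjamini-Hochberg adjustment over all 18287 genes, 80137 transcripts or 54197 transcript shares. Fold changes on this scale understate the change of low genes. The study's own test, an equal-variance two-group test on FPKM at an unadjusted p under 0.05, was an alternative. It was run on gene sums and shares as well as on transcripts, which the study tested. The 70 splits of an exact permutation test bound its two-sided p at 0.0286. Member genes, transcripts and lists were chosen with earlier results of these data known. Named transcripts were the 2 with the highest share of each gene and, per comparison, the 3 with the smallest limma p on FPKM (mean of at least 1) and on share, while Erc2-205, Erc2-210, Pclo-201, Rims1-206 and Rims1-208 were named after their values had been seen. Tested on simulated data of NLH vs. Ctrl with 200 features changed by a factor of 4, limma recovered 92.0% of changed genes (185 called, 1 of them unchanged, of 18287), 57.0% of transcripts (121 called, 7 unchanged, of 80137) and 23.5% of shares (82 called, 1 unchanged, of 54197).

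The alternatives were: 0.01 or 1 added before the logarithm, features with mean FPKM 1 or more, scaling by median-ratio size factors, only the 2 groups compared, the replicate number as a block, each mouse left out, LH mice 1 and 2 only, Ensembl or protein-coding transcripts summed, and, added after the data were seen, the whole locus summed, and, changing 2 or 3 choices together, LH mice 1 and 2 or 1 to 3 with size factors, the whole locus with size factors, and LH mice 1 and 2 with the whole locus, without and with size factors. Mice with the same number were not found to be paired: the median r of their deviations from group means was -0.0230 over 24 pairs, and 3 pairs were over 0.1. Software was the data.table package (1.17.8), Python 3.11.15, numpy 2.4.6, pandas 2.3.3, scipy 1.17.1 and matplotlib 3.10.9.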

Additional observations from a re-analysis of the deposited data

Results flagged for a closer look

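Of the sets of 4 mice tested, 40 from the 10 gene sums and 32 from 8 named transcripts in each of 4 groups, 5 held a mouse whose distance to the nearest of the others, as a part of the whole range of the group, was above Dixon's 95% critical value for 4 samples. Chance gives about 1 such mouse in 20 groups. Rims1 was 15.2 FPKM in Ctrl mouse 1, with the other Ctrl mice at 19.3 to 19.8. Rims2 was 1.196 FPKM in HC mouse 3, with the other HC mice at 0.394 to 0.495, and 0.399 in NLH mouse 1, with the other NLH mice at 1.39 to 1.55. Erc1 was 3.81 FPKM in HC mouse 1, with the other HC mice at 2.20 to 2.44. Pclo-204 was 5.13 FPKM in NLH mouse 1, with the other NLH mice at 4.798 to 4.84. Ctrl mouse 1 and NLH mouse 1 also had a low mean over the 10 genes, and the part of this in these values was not tested.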

How the results depend on the processing

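The counts of members past the adjusted threshold were 0 under each alternative run except the following. The study's two-group test at its unadjusted cutoff counted 3 genes in NLH vs. Ctrl, 4, 7, 8 and 5 transcripts and 5, 6, 7 and 6 shares in the comparisons Ctrl vs. HC, NLH vs. Ctrl, LH vs. Ctrl, LH vs. NLH. With LH mice 1 and 2 only, 2 genes passed in LH vs. Ctrl (Erc2 0.55, Rab3c 0.51) and 1 in the 4-group test. With the whole locus summed as well, 3 passed in each (Rims2, Pclo and Rab3c in LH vs. Ctrl). In either fit 0 passed when size factors were added. Among the 18287 gene names, LH vs. Ctrl was passed by 5.41% with named transcripts and 8.31% with the locus, both without size factors. For the 4-group test the matching percentages are not given here, so its counts in these fits have no background. Leaving out each mouse in turn gave 0 to 1 gene in LH vs. Ctrl. The 1 gene was Erc2 (0.60) without LH mouse 4, a fit in which 1.04% of the 18287 passed. The fit with the replicate number as a block gave 0 at every level (Erc2-201 in NLH vs. Ctrl 0.74, adjusted p = 0.51), and the numbers do not pair mice.

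After median-ratio size factors, these log2 differences turned sign: in Ctrl vs. HC Pclo -0.025, in LH vs. Ctrl Rims1 -0.033, Bsn -0.015, in LH vs. NLH Ppfia3 0.0080, in NLH vs. Ctrl Bsn -0.0066, Rab3a -0.019. With LH mice 1 and 2 only, these log2 differences turned sign: in LH vs. Ctrl Rab3a 0.20, in LH vs. NLH Rims1 0.039, Pclo 0.063, Bsn 0.19, Unc13a 0.084, Erc2 0.076, Rab3a 0.14, Ppfia3 0.18. With protein-coding transcripts only, these log2 differences turned sign: in Ctrl vs. HC Erc1 -0.17, in LH vs. Ctrl Rab3a 0.00042, in LH vs. NLH Pclo 0.021. With the whole locus summed, these log2 differences turned sign: in Ctrl vs. HC Pclo -0.032, in LH vs. Ctrl Bsn -0.072, Unc13a -0.12, Erc1 0.13, in LH vs. NLH Rims1 0.032, Rims2 0.014, Pclo 0.019, in NLH vs. Ctrl Unc13a -0.012. Under size factors with LH mice 1 and 2 only, these log2 differences turned sign: in Ctrl vs. HC Pclo -0.025, in LH vs. Ctrl Rims1 -0.090, in LH vs. NLH Bsn 0.026, Ppfia3 0.024, in NLH vs. Ctrl Bsn -0.0066, Rab3a -0.019. With LH mice 1 to 3 and size factors, these log2 differences turned sign: in Ctrl vs. HC Pclo -0.025, in LH vs. Ctrl Rims1 -0.083, Rims2 -0.11, Bsn -0.067, in LH vs. NLH Erc2 0.071, Ppfia3 0.0051, in NLH vs. Ctrl Bsn -0.0066, Rab3a -0.019. Under the whole locus with LH mice 1 and 2 only, these log2 differences turned sign: in Ctrl vs. HC Pclo -0.032, in LH vs. Ctrl Unc13a -0.053, Erc1 0.23, Rab3a 0.20, in LH vs. NLH Rims1 0.12, Rims2 0.047, Pclo 0.062, Bsn 0.13, Rab3a 0.14, Ppfia3 0.11, in NLH vs. Ctrl Unc13a -0.012. With the whole locus and size factors, these log2 differences turned sign: in Ctrl vs. HC Rims1 -0.0049, Pclo -0.060, Ppfia3 -0.0051, in LH vs. Ctrl Bsn -0.11, Unc13a -0.16, Erc1 0.10, in LH vs. NLH Rims1 0.076, Rims2 0.058, Pclo 0.063, Erc2 0.0053, Ppfia3 0.015, in NLH vs. Ctrl Rims1 -0.018, Bsn -0.056, Unc13a -0.090, Rab3a -0.019, Ppfia3 -0.0061. With these 3 choices together (LH mice 1 and 2, whole locus, size factors), these log2 differences turned sign: in Ctrl vs. HC Rims1 -0.0049, Pclo -0.060, Ppfia3 -0.0051, in LH vs. Ctrl Rims1 -0.059, Bsn -0.084, Unc13a -0.29, Erc2 -0.13, Ppfia3 -0.060, in NLH vs. Ctrl Rims1 -0.018, Bsn -0.056, Unc13a -0.090, Rab3a -0.019, Ppfia3 -0.0061.

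Leaving out each mouse in turn, the differences that turned sign ranged in Ctrl vs. HC Erc1 -0.029 to 0.22, Pclo -0.015 to 0.027, Rab3c -0.053 to 0.044, Rims1 -0.026 to 0.13, Rims2 -0.28 to 0.32, in LH vs. Ctrl Bsn -0.10 to 0.13, Rab3a -0.084 to 0.065, Rims1 -0.091 to 0.054, Rims2 -0.33 to 0.43, Unc13a -0.058 to 0.27, in LH vs. NLH Bsn -0.17 to 0.056, Erc2 -0.21 to 0.13, Pclo -0.11 to 0.0066, Ppfia3 -0.11 to 0.064, Rab3a -0.14 to 0.0064, Rab3c -0.12 to 0.11, Unc13a -0.33 to 0.0045. None of these sign changes passed the adjusted threshold in any of these fits, and the cause of the turns was not tested. The other named differences kept their sign under the alternatives run. Precision is limited by 4 mice a group, by depth that could only be estimated, and, for transcripts, by the division of fragments between overlapping named and unnamed transcripts of a locus.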
